A study of Mus musculus with 4 samples.

Results

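Reads of the Cyp2c enzymes were lower in mouse liver after an overdose of acetaminophen (APAP) than after vehicle. Reads of the 10 genes together were 3.35 times lower at 24 h (95% interval 3.24 to 3.46) and 3.10 times lower at 48 h (3.0 to 3.21). Cyp2c29, the most abundant of them in control liver, was 6.22 times lower at 24 h, and Cyp2c37 was 7.10 times lower at 48 h. Cyp2c68 and Cyp2c70 were lowered least at 24 h, and Cyp2c68 again at 48 h. The 10 genes are Cyp2c29, Cyp2c37, Cyp2c38, Cyp2c40, Cyp2c50, Cyp2c54, Cyp2c67, Cyp2c68, Cyp2c69 and Cyp2c70, taken by gene symbol from the 27027 entries of the count table.

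Male C57BL/6J mice, labelled C57BL/6 and 9 to 12 weeks old, were fasted for 10 h and injected intraperitoneally with APAP at 300 mg/kg or with its vehicle, 0.9% NaCl. The sources give no engineered allele for any of the groups. Livers, perfused with PBS, were taken 24 h or 48 h later, in what the study regards as the initial resolution phase of liver injury. RNA of 6 control mice or 7 APAP mice per time point was pooled in equal shares, and each of the 4 pools was read as 1 library by MACE (massive analysis of cDNA ends), which sequences mRNA near the 3′ end and removes copies by molecular identifiers. As each group is 1 library, the spread between mice is unknown and no test within a time point was possible. The p-values given come from 1 fit over both times, in which the time points stand in for replicates. Intervals in parentheses are exact 95% intervals of the counts alone and do not include variation among animals.

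Cyp2c enzymes are microsomal cytochrome P450 monooxygenases, which use electrons from P450 reductase to insert oxygen into drugs, steroids and fatty acids. In the mouse they form a family that has grown by repeated gene duplication, and several members convert arachidonic acid into epoxyeicosatrienoic acids, lipid mediators of vascular tone and inflammation. Many hepatic P450 enzymes are made mainly by pericentral hepatocytes, the cells around the central vein that also turn APAP into its reactive metabolite. Another member, Cyp2c70, hydroxylates bile acids to muricholic acids, which give mouse bile its hydrophilic character.

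The libraries held between 4859661 and 5698778 reads. Counts were divided by median-of-ratios size factors, which make libraries of different depth comparable, and are called normalized reads. Since MACE takes reads from 1 end of a transcript, counts were not divided by transcript length. Hepatocyte markers identified the tissue in every pool: their 18 genes in the table summed to between 134431 and 160363 RPM (reads scaled to the library total), with Alb, coding for albumin, between 208729 and 254523 reads. In bulk RNA, fewer cells of a type and less RNA per cell cannot be told apart.

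In GENCODE release 21 on GRCm38 (mm10), the 10 genes lie in 1 cluster on chromosome 19, chr19:39269405-40187333, a stretch of 918 kb with 3 of them on the plus strand and 7 on the minus strand. Cyp2c39, which is not among the 10, lies inside the stretch between Cyp2c38 and Cyp2c67. Each has 9 exons in the transcript used here. Upstream sequences are shown for 7 of the genes, chosen to set duplicates beside each other. RefSeq promoter windows, 250 bases before to 50 bases after the start on GRCm38.p6, were matched by symbol for 9 members. Cyp2c54 was not matched. The 160 bases before the start are printed 5′ to 3′ on the gene's own strand, from chr19:39286925-39287084 (plus) for Cyp2c29, chr19:39463076-39463235 (minus) for Cyp2c38, chr19:39992264-39992423 (plus) for Cyp2c37, chr19:40089519-40089678 (plus) for Cyp2c50, chr19:39649043-39649202 (minus) for Cyp2c67, chr19:39741102-39741261 (minus) for Cyp2c68 and chr19:40187287-40187446 (minus) for Cyp2c70. Capitals mark matches on either strand to 4 motifs: TATAAA (a core promoter element), AGGTCA (nuclear receptor half-site), TTGCNNAA (C/EBP type) and CAAAGTCC (HNF4 type).
Cyp2c29: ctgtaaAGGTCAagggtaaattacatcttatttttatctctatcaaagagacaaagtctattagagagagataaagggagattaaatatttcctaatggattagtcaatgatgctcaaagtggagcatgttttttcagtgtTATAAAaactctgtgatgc
Cyp2c38: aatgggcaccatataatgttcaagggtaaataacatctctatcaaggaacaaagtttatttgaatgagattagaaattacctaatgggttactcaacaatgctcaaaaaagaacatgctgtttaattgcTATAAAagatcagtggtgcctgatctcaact
Cyp2c37: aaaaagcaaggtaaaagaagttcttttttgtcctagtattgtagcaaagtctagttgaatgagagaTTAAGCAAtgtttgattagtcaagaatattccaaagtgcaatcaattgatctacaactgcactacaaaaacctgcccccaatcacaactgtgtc
Cyp2c50: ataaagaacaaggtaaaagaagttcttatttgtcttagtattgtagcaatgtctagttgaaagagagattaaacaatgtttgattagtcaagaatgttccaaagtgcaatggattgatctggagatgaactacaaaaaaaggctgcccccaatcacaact
Cyp2c67: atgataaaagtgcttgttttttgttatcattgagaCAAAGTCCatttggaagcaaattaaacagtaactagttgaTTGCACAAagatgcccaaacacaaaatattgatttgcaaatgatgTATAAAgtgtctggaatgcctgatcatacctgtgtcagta
Cyp2c68: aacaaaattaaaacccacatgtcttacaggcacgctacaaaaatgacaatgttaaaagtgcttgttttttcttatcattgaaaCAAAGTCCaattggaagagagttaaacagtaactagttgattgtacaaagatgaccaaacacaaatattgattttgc
Cyp2c70: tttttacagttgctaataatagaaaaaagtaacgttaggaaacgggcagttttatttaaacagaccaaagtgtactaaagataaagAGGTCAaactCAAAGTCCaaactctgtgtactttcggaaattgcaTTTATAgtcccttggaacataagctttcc

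Within the 300-base windows, CAAAGTCC was found in 5 of the 9 member promoters (Cyp2c67, Cyp2c68, Cyp2c40, Cyp2c69 and Cyp2c70) and in 1.42% of all 32851 promoters of the table. TTGCNNAA was in 4 members (Cyp2c67, Cyp2c40, Cyp2c69 and Cyp2c37) and in 10.8% of all promoters, TATAAA in 6 members and 13.6%, and AGGTCA in 2 members, Cyp2c29 and Cyp2c70, and 16.3%. The TATAAA match lay 40 bases after the start in Cyp2c40 and 10 bases after it in Cyp2c69. In Cyp2c70 it was on the opposite strand. No match overlapped another in the member promoters. Cyp2c67, Cyp2c68, Cyp2c40 and Cyp2c69 are duplicates of each other, so these are not independent occurrences. Aligned over the whole window, Cyp2c68 and Cyp2c69 were 91.1% identical, Cyp2c37 and Cyp2c50 86.6%, and Cyp2c29 and Cyp2c38 70.8%, whereas Cyp2c70 was at most 53.3% identical to any other member. A match to these letters is a description and not evidence of binding.

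Because reads come from 3′ ends, likeness there decides how well members can be told apart. Among Cyp2c67, Cyp2c68 and Cyp2c40 the last 300 transcript bases were 97.3% to 98.0% identical. Cyp2c69, whose annotated transcript ends earlier, matched a transcript of Cyp2c40 over 301 bases at 96.7%. For Cyp2c37, Cyp2c50 and Cyp2c54 the best matches ranged from 92.8% to 93.7%. No other gene reached 95% identity over 100 bases with a member, so 4 of the 10 members had such a partner, and every partner was itself a member. How the reads of these 4 were shared among them was not tested, and their separate values are uncertain. Cyp2c29 and Cyp2c38 were 89.1% identical in coding sequence but 52.5% over the last 300 bases. The Cyp2c29 entry also takes in reads that could belong to its neighbouring pseudogene Cyp2c53-ps, whose own entry held between 0 and 6 reads per library.

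**Figure D1:**
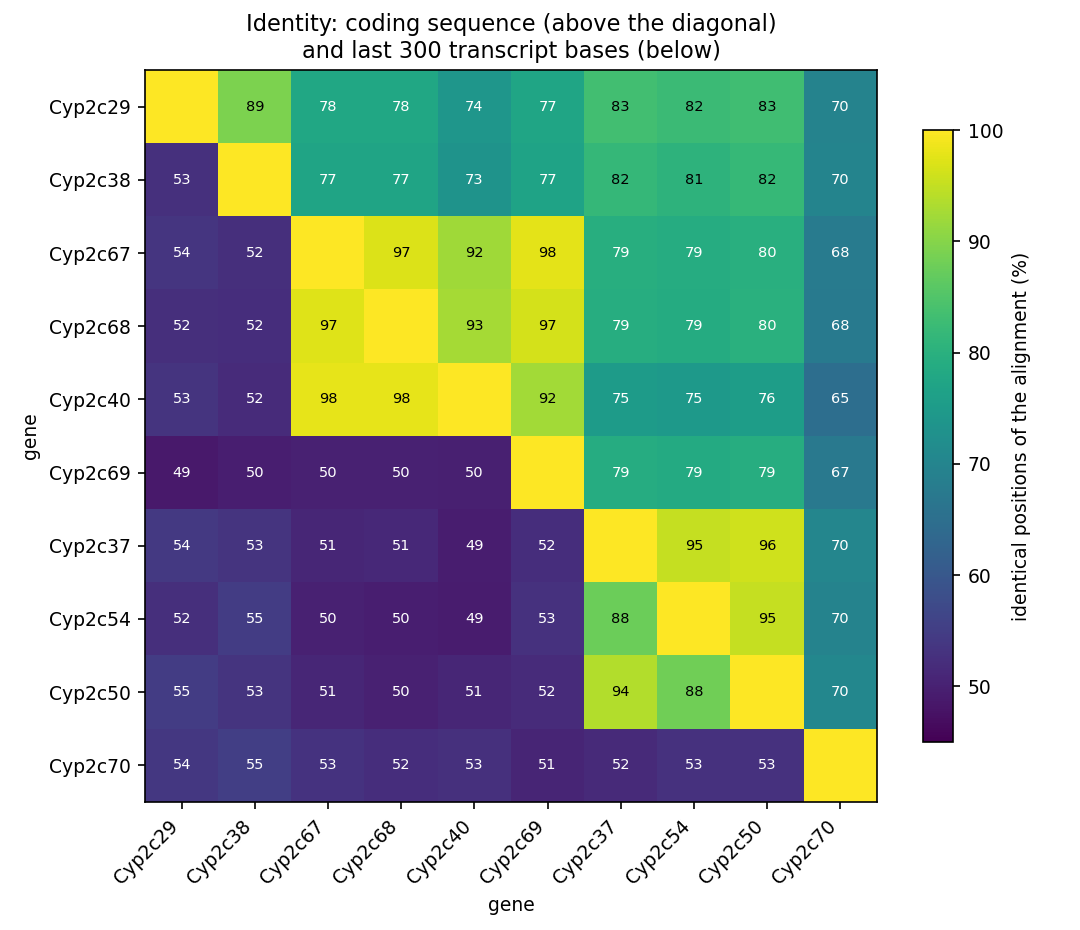
Percentage of identical positions in pairwise alignments of the 10 Cyp2c genes, in order along the cluster, with coding sequences above the diagonal and the last 300 transcript bases below it. Cyp2c67, Cyp2c68 and Cyp2c40 form a block at 97.3% to 98.0% in the 3′ ends, a second block holds Cyp2c37, Cyp2c54 and Cyp2c50, and Cyp2c70 has the lowest identities in coding sequence, 64.8% to 70.4%.

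Averaged over the 4 libraries, all 10 members reached 10 normalized reads, as did 12113 of all entries, which are called measured genes. At 24 h, 8 of the 10 members were at least 2-fold lower after APAP, against 5.68% of measured genes. The median log2 fold of the members was -1.52, that of all measured genes 0.01. At 48 h, 7 members were at least 2-fold lower, against 5.61% of measured genes, with a median log2 fold of -1.59 beside -0.02 for all measured genes. The members Cyp2c29, Cyp2c37, Cyp2c38, Cyp2c50, Cyp2c54 and Cyp2c67, 6 in all, passed 2-fold at both times, as did 2.4% of measured genes. No member was at least 2-fold higher, whereas 5.85% of measured genes were at 24 h and 5.76% at 48 h. Both APAP pools lay below both control pools for all 10 members and for 26.3% of measured genes.

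The study's threshold of 5-fold, applied here to lower reads, was passed by Cyp2c29 and Cyp2c38 at 24 h (0.636% of measured genes) and by Cyp2c37 at 48 h (0.768%). No member passed it at both times, as 0.355% of measured genes did.

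Treatment was also fitted over both times with edgeR's quasi-likelihood test, time as a term and Benjamini-Hochberg adjustment over the 12113 measured genes. At an adjusted p under 0.05, 9 of the 10 members were lower after APAP and none higher, against 6.86% of measured genes that were lower. Cyp2c29 had a log2 fold of -2.37 ± 0.19 (SE, adjusted p = 2.11e-07 by edgeR) and Cyp2c37 of -2.46 ± 0.20 (adjusted p = 2.04e-07 by edgeR). Cyp2c68, at -0.63 ± 0.18, was nearest to the threshold among the 9 (adjusted p = 0.0283 by edgeR), and its call was lost without the term for time, with TMM (trimmed mean of M values) or library totals, or with DESeq2. Cyp2c69, at -0.97 ± 0.36, did not pass (adjusted p = 0.109 by edgeR). Without the 48 h control pool and the term for time, 6 members passed, and the calls of Cyp2c40, Cyp2c68 and Cyp2c70 were lost. The fit leaves 1 residual degree of freedom per gene, which is how far the folds at 24 h and 48 h disagree. It borrows the spread from all genes and measures neither the spread between like pools nor that between mice.

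**Figure D2:**
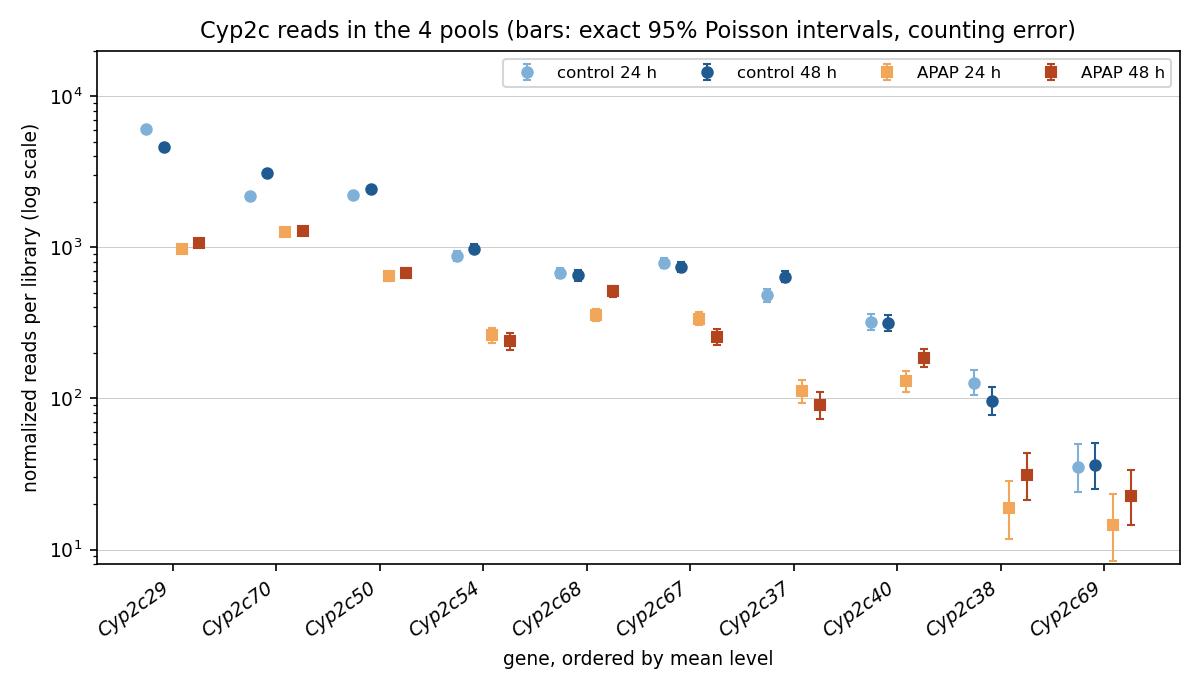
Normalized reads of each Cyp2c gene in the 4 pools on a log axis, ordered by mean level, with circles for control pools, squares for APAP pools and bars for exact 95% Poisson intervals. For every gene both squares lie below both circles, from Cyp2c29 at 6039 in the 24 h control pool down to Cyp2c69 at 14.5 in the 24 h APAP pool.

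Cyp2c29 encodes an abundant hepatic epoxygenase that is inducible through the receptor CAR. It had 6039 normalized reads in the 24 h control pool, 4588 in the 48 h control pool, 970.1 in the 24 h APAP pool and 1072 in the 48 h APAP pool. The APAP pools were alike and both far below the controls, which were themselves unequal. Its reads were 6.22 times lower at 24 h (5.84 to 6.64), and 0.388% of measured genes had a lower fold. At 48 h they were 4.28 times lower (4.01 to 4.57). Cyp2c38, its nearest relative in coding sequence, was a low gene, with 127 and 96.5 normalized reads in controls and 18.7 and 30.9 after APAP, each at 24 h and 48 h. These rest on 112, 90, 22 and 33 reads. The gene was 6.80 times lower at 24 h (4.28 to 11.3) and 3.12 times lower at 48 h (2.07 to 4.80). The folds of Cyp2c29 and Cyp2c38 were not distinguishable at this depth: their ratio was 1.09 at 24 h (0.683 to 1.82) and 0.729 at 48 h (0.481 to 1.13).

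Cyp2c37, Cyp2c50 and Cyp2c54 have closely related sequences. Cyp2c50 had 2220.3 and 2416 normalized reads in controls and 643 and 678 after APAP, each at 24 h and 48 h. Its reads were 3.45 times lower at 24 h (3.17 to 3.76) and 3.56 times lower at 48 h (3.28 to 3.88). Cyp2c54 gave 879 and 982 normalized reads in controls and 261 and 239 after APAP. Its reads were 3.36 times lower at 24 h (2.94 to 3.85) and 4.11 times lower at 48 h (3.57 to 4.74).

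Cyp2c37 had 481 and 639 normalized reads in controls and 111.6 and 90.0 after APAP, each at 24 h and 48 h. Its APAP pools were thus far below the controls at both times, 4.31 times at 24 h (3.53 to 5.28) and 7.10 times at 48 h (5.71 to 8.90). At 48 h only 0.446% of measured genes had a lower fold. Its fold was 1.99 times smaller than that of Cyp2c50 at 48 h (1.58 to 2.54), the gene with the most similar 3′ end among its relatives, and 1.25 times smaller at 24 h (1.005 to 1.56). Between Cyp2c50 and Cyp2c54 the ratio of folds was 0.973 at 24 h (0.830 to 1.14) and 1.15 at 48 h (0.978 to 1.36). Summed, the 3 genes were 3.52 times lower at 24 h (3.29 to 3.77) and 4.01 times lower at 48 h (3.74 to 4.29), a value that does not depend on how reads were shared among them.

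Cyp2c67, Cyp2c68, Cyp2c40 and Cyp2c69 are the duplicates with nearly identical 3′ ends. Cyp2c67 had 788 and 737 normalized reads in controls and 337 and 255 after APAP, each at 24 h and 48 h. It was 2.34 times lower at 24 h (2.06 to 2.65) and 2.89 times lower at 48 h (2.51 to 3.34). Cyp2c68 started from a similar control level, 676 and 652, and had 358 and 512 in the APAP pools. Here the 48 h APAP pool came closer to the controls, with reads 1.89 times lower at 24 h (1.67 to 2.15) and 1.27 times lower at 48 h (1.13 to 1.43). Scaled by library totals, the log2 fold of Cyp2c68 at 48 h was -0.08 in place of -0.35, near no difference. At 48 h, 25.2% of measured genes had a lower fold than Cyp2c68.

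Cyp2c40, an arachidonic acid hydroxylase, had 321 and 316 normalized reads in controls and 130.3 and 186 after APAP. It was 2.46 times lower at 24 h (2.01 to 3.02) and 1.70 times lower at 48 h (1.42 to 2.05). Cyp2c69 was the least abundant member, with 31, 34, 17 and 24 reads in the 24 h control, 48 h control, 24 h APAP and 48 h APAP pools. Its fold was 2.43 times lower at 24 h (1.31 to 4.69), and at 48 h the interval, 0.933 to 2.85 times lower around 1.62, included no difference.

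Within this set, Cyp2c67 was lowered 2.27 times more than Cyp2c68 at 48 h (1.88 to 2.73) and 1.24 times more at 24 h (1.03 to 1.48). As the reads of both could be exchanged, the sum is the firmer value. All 4 together were 2.17 times lower at 24 h (2.00 to 2.35) and 1.79 times lower at 48 h (1.65 to 1.93).

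Cyp2c70 had 2182 normalized reads in the 24 h control pool, 3111.5 in the 48 h control pool, 1262 in the 24 h APAP pool and 1290.1 in the 48 h APAP pool. The APAP pools hardly differed, while the controls did. Its reads were 1.73 times lower at 24 h (1.61 to 1.85) and 2.41 times lower at 48 h (2.26 to 2.57). Set against the control pool of the other time point, the log2 fold was -1.30 at 24 h and -0.76 at 48 h in place of -0.79 and -1.27, so whether Cyp2c70 passed 2-fold rested on which control pool was used. At 24 h the fold of Cyp2c29 was 3.60 times smaller than that of Cyp2c70 (3.28 to 3.96), and at 48 h 1.78 times smaller (1.62 to 1.95).

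**Figure D3:**
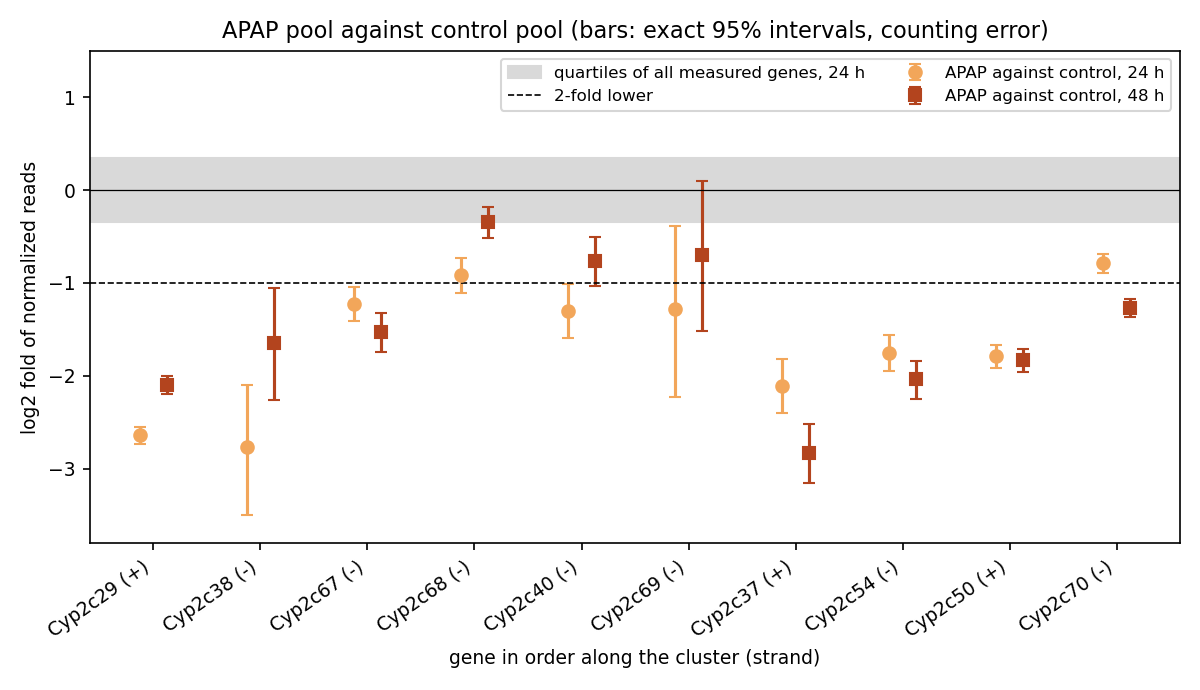
Log2 fold of normalized reads, APAP pool against control pool of the same time, for the Cyp2c genes in order along the cluster, with the strand in parentheses, circles for 24 h, squares for 48 h and exact 95% intervals as bars. The grey band spans the quartiles of all measured genes at 24 h, -0.35 to 0.35, and the dashed line marks 2-fold. Cyp2c68 at 48 h lies at the edge of the band and Cyp2c37 at 48 h lies lowest.

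In these pools the folds of the members were thus not all alike. Of the 45 pairs of members, 33 had folds whose ratio differed from 1 beyond counting error at 24 h and 33 at 48 h. With intervals adjusted over the 45 pairs the counts were 23 and 27. Such intervals leave out differences between pools. Between the control pools alone, the 48 h to 24 h ratio was 0.760 for Cyp2c29 and 1.43 for Cyp2c70. Pairs of other genes were not counted, and whether members respond differently across mice was not tested. Along the cluster, the 3 plus-strand genes (Cyp2c29, Cyp2c37 and Cyp2c50) were 3.45 to 6.22 times lower at 24 h and 3.56 to 7.10 times lower at 48 h. The 7 minus-strand genes ranged from 1.73 to 6.80 times lower at 24 h and from 1.27 to 4.11 times lower at 48 h, so the ranges overlapped.

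How far control mice differed between time points could be seen only from both control pools. The ratio of the 48 h to the 24 h control pool ran from 0.758 for Cyp2c38 to 1.43 for Cyp2c70. No member differed by 2-fold, against 5.2% of measured genes. For Cyp2c29 the ratio was 0.760 (0.730 to 0.791) and for Cyp2c37 1.33 (1.17 to 1.51), both beyond counting error. Summed over the 10 members it was 0.987 (0.963 to 1.01).

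Between time points the folds moved in opposite directions among members. The fold at 48 h divided by that at 24 h was above 1, toward the control level, for Cyp2c29, Cyp2c38, Cyp2c40 and Cyp2c68, with intervals that excluded 1. It was below 1 with such intervals for Cyp2c37, Cyp2c54, Cyp2c67 and Cyp2c70, although scaling by library totals brought the intervals of Cyp2c54 and Cyp2c67 across 1. For Cyp2c68 (1.48, 1.25 to 1.77) and Cyp2c40 (1.44, 1.10 to 1.90) the difference lay in the APAP pools, where the 48 h reads were 1.43 times the 24 h reads for Cyp2c68 (1.26 to 1.63) and 1.42 times for Cyp2c40 (1.15 to 1.77), while their control pools differed by less than counting error. For Cyp2c29 and Cyp2c70, in contrast, the APAP pools had ratios of 1.10 (1.02 to 1.20) and 1.02 (0.949 to 1.10), and most of the difference lay between the control pools. For Cyp2c37 the APAP pools had a ratio of 0.807 (0.613 to 1.06), beside 1.33 between its control pools, and for Cyp2c54 0.914 (0.771 to 1.08), beside 1.12 (1.01 to 1.23). For Cyp2c38 the APAP pools had a ratio of 1.65 (0.934 to 2.97), beside 0.758 (0.568 to 1.01) between its control pools. A change over time after APAP cannot be told apart from the difference between control pools in Cyp2c29, Cyp2c37, Cyp2c38, Cyp2c54 and Cyp2c70.

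As a result, the make-up of the family's reads was different after APAP. The 10 members took 0.249% of all reads in the 24 h control pool and 0.244% in the 48 h control pool, against 0.0846% and 0.0945% in the APAP pools. Cyp2c29 held 43.9% of the family's reads (43.0 to 44.8) in the 24 h control pool and 33.8% (33.0 to 34.6) in the 48 h control pool, and 23.6% (22.4 to 24.8) and 24.5% (23.3 to 25.8) in the APAP pools. Cyp2c70 went the other way, with 15.9% and 22.9% in controls and 30.7% and 29.5% in the APAP pools. In both APAP pools it was the member with the most reads, a place that Cyp2c29 held in both control pools. Cyp2c68 had 4.92% and 4.80% in controls and 8.71% and 11.7% after APAP. The share of Cyp2c50 stayed between 15.5% and 17.8%.

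**Figure D4:**
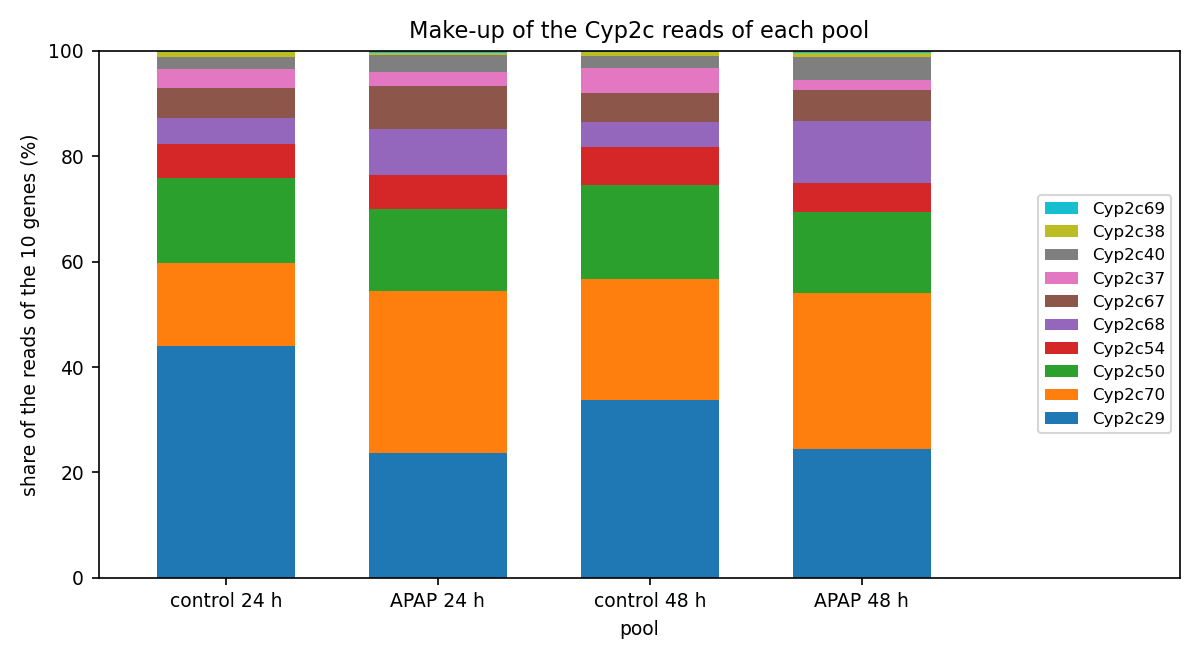
Share of the reads of the 10 Cyp2c genes held by each gene, in per cent, 1 stacked bar per pool. Cyp2c29, at the base of each bar, takes 43.9% and 33.8% in controls and 23.6% and 24.5% in the APAP pools, while Cyp2c70 above it widens after APAP.

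The table held 6 other Cyp2c genes. Cyp2c44, an epoxygenase gene that lies outside the cluster at chr19:44005022-44029208, was the only one measured, with 649 and 851 reads in controls and 431 and 489 after APAP, each at 24 h and 48 h. It was 2.01 times lower at 24 h (1.78 to 2.27) and 1.99 times lower at 48 h (1.78 to 2.23). Cyp2c39 and Cyp2c55 had at most 10 reads in a library, Cyp2c66 at most 1 and Cyp2c65 none in any library, where 3 reads correspond to between 0.526 and 0.618 RPM. These are limits of counting and do not show absence. Adding all of them to the family sum left it 3.24 times lower at 24 h (3.14 to 3.34) and 2.999 times lower at 48 h (2.90 to 3.10).

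P450 enzymes depend on redox partners and on heme. Of 7 such genes measured, 2 were at least 2-fold lower at both times, against 2.4% of all measured genes, and 1 was higher. Por, coding for the P450 reductase that supplies electrons to every microsomal P450, had 549, 773, 1179 and 1202 reads in the 24 h control, 48 h control, 24 h APAP and 48 h APAP pools. It was higher after APAP, by 1.61-fold at 24 h (1.45 to 1.78) and 1.36-fold at 48 h (1.24 to 1.49), above the controls at both times where the Cyp2c genes were below them. Cyb5r3, the cytochrome b5 reductase, was 2.16 and 3.11 times lower, and Cyb5b, a cytochrome b5 of the mitochondrial outer membrane, 2.24 times lower at both times. Hmox1, which breaks down heme, was 2.24-fold higher at 24 h (1.72 to 2.95) and 2.33-fold higher at 48 h (1.75 to 3.14).

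Among 12 regulators known to act on Cyp2c genes, all measured, 1 was at least 2-fold lower and 1 higher at 24 h, and none passed 2-fold at 48 h. Of all measured genes, 5.68% were lower and 5.85% higher at 24 h, so these counts do not set the regulators apart. Nr1i3, coding for CAR, had 213, 207, 467 and 231 reads in the same order, a 1.64-fold higher level at 24 h (1.39 to 1.94) and 0.976-fold at 48 h (0.805 to 1.18). Nr1i2, coding for the related receptor PXR, stayed within counting error, at 1.01-fold (0.779 to 1.30) and 0.999-fold (0.776 to 1.29). Hnf4a, a master regulator of hepatocyte genes, was at 1.17-fold (1.06 to 1.28) and 0.942-fold (0.857 to 1.04). Onecut1 was the gene lower at 24 h, 2.44 times (1.68 to 3.57), and 2.00 times lower at 48 h (1.40 to 2.87), just short of 2-fold. Cebpa, a C/EBP factor of differentiated hepatocytes, was 1.78 and 1.57 times lower, and Cebpb, a C/EBP factor of the acute-phase response, 2.06-fold higher at 24 h (1.83 to 2.31) and 1.37-fold at 48 h (1.20 to 1.57). The part of any of these in the Cyp2c values was not tested.

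Of 15 measured genes around the epoxyeicosanoids, 5 were at least 2-fold lower at 24 h, 6 at 48 h and 4 at both times. The shares of all measured genes were 5.68%, 5.61% and 2.4%. Those 4 were Cyp4a12a, Cyp4a12b and Cyp4f14, which hydroxylate fatty acids at their end, and Acsl1, which activates fatty acids. Cyp4a12a was 2.74 times lower at 24 h and 8.49 times at 48 h, and Cyp4a12b, a close duplicate whose reads may be exchanged with it, 2.59 and 10.9 times. Cyp4a14, of the same subfamily, was 1.29-fold higher at 24 h (1.22 to 1.37) and 2.02-fold at 48 h (1.76 to 2.32). Among the measured genes of the list it was the only one at least 2-fold higher at either time. Its control pools held 2299 and 320 normalized reads and its APAP pools 2972 and 646, each at 24 h and 48 h. Cyp4a10 was at 1.45-fold at 24 h (1.37 to 1.53) and 0.580-fold at 48 h (0.516 to 0.652). It had 2237 and 784 normalized reads in controls and 3242 and 455 after APAP. For both genes the 48 h fold thus rested on a control pool far below that of 24 h. Ephx2, coding for the soluble epoxide hydrolase that removes the products of Cyp2c epoxygenases, had 1690, 2627, 1586 and 1386 reads. It was 1.42 times lower at 24 h (1.33 to 1.52) and 2.17 times lower at 48 h (2.03 to 2.31). Ephx1, the microsomal epoxide hydrolase, was 1.76 and 1.28 times lower.

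P450 genes outside the family were counted in the same way, beside 5.68% of all measured genes at least 2-fold lower at 24 h and 5.61% at 48 h. Of 21 measured drug-metabolizing P450 genes, 4 were at least 2-fold lower at 24 h and 6 at 48 h, with medians of -0.47 and -0.38 on the log2 scale. In the other direction, 1 was at least 2-fold higher at 48 h, Cyp3a13, at 1.88-fold at 24 h (1.68 to 2.11) and 2.05-fold at 48 h (1.84 to 2.28). Cyp1a2, Cyp2f2 and Cyp3a11 were lower at both times, the last by 5.43 times at 24 h and 11.7 times at 48 h. Of 6 bile acid P450 genes, 2 were at least 2-fold lower at 24 h and 4 at 48 h, Cyp7a1 and Cyp8b1 at both times. Cyp8b1, which makes cholic acid, was 8.80 times lower at 24 h and 5.11 times at 48 h, beside 1.73 and 2.41 times for Cyp2c70 in the other branch of bile acid hydroxylation.

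Pericentral hepatocyte markers were low after APAP as well. Of 15 measured, 11 were at least 2-fold lower at 24 h and 11 at 48 h, with medians of -1.32 and -1.48, and the 16 genes in the table summed to 4904 and 5044 RPM in controls and 2352 and 1953 after APAP. Glul, a defining gene of the innermost pericentral cells, was 9.32 and 11.8 times lower. Oat, Slc1a2, Lgr5, Rhbg, Cyp1a2, Gulo, Aldh1a1 and Rgn were among the others at least 2-fold lower at both times. Of these, Lgr5 had only 18 and 15 reads in controls and 6 and 7 after APAP. Its 48 h interval, 0.141-fold to 1.06-fold, included no difference. Rhbg had 43 and 109 reads in controls, which were thus unequal, and 10 and 11 after APAP. Cpox, Slc1a4 and Lect2 did not reach 2-fold at either time. Cpox was at 1.17-fold at 24 h (1.03 to 1.33) and 1.43 times lower at 48 h (1.25 to 1.64). Slc1a4 was 1.97 times lower at 24 h (1.06 to 3.73) and at 1.20-fold at 48 h (0.603 to 2.45). Lect2 was at 0.690-fold and 0.803-fold. Cyp2e1 was 1.61 times lower at 24 h and 2.71 times at 48 h, so it passed 2-fold at 48 h only. Of 18 periportal markers, 6 were at least 2-fold lower at 24 h and 2 at 48 h, with medians of -0.40 and -0.05, and their sums were 7372 and 9004 in controls and 5978 and 9421 after APAP. Cyp2f2 and G6pc were lower and Pck1 and Sdsl higher at both times. General hepatocyte markers had medians of -0.21 and 0.03, with 3 of 18 at least 2-fold higher at 24 h and none lower. Their part in the Cyp2c values was not tested.

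Markers of myeloid cells, of endothelial and stellate cells and of cholangiocytes had higher summed levels after APAP, while single genes of the first and second list lay on both sides of the control level. Myeloid markers summed to 233 and 235 RPM in controls and to 400 and 603 in the APAP pools, and 7 of 16 measured passed 2-fold higher at 24 h, with 11 at 48 h. Lyz2, Cd14, Ccr2, Ly6c2, S100a8, S100a9 and Marco were those higher at both times. Some of these folds rest on few control reads. S100a9 had 1 read in the 48 h control pool, and Ccr2 and Ly6c2 had 3 each in the 24 h control pool. In the same list 4 genes were below the control level at 24 h and 2 at 48 h, among them Clec4f, a Kupffer cell marker, at 0.534-fold at 24 h (0.441 to 0.645) and 0.985-fold at 48 h (0.831 to 1.17). Adgre1 and Vsig4 were at 0.793-fold and 0.781-fold at 24 h. Endothelial and stellate markers summed to 263 and 281 in controls and 336 and 476 after APAP, with 2 and 5 of 15 at least 2-fold higher, Lyve1 and Acta2 at both times. Below the control level were 7 of the 15 at 24 h and 5 at 48 h, with Lrat, a stellate cell gene, at 0.557-fold at 24 h (0.322 to 0.951) and 0.832-fold at 48 h (0.523 to 1.32). Cholangiocyte markers summed to 34.0 and 44.3 and then 94.9 and 81.4. Of 3 measured, 1 was at least 2-fold higher and none was below the control level at each time, and Cftr was at 0 in 3 pools. Of the small intestine and kidney markers only Fabp2, which liver may also express, was measured, at 0.864-fold at 24 h (0.746 to 1.0001) and 0.596-fold at 48 h (0.504 to 0.705), and Umod and Slc34a1 were at 0 in every pool. The part of these shifts in the Cyp2c folds was not tested.

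**Figure D5:**
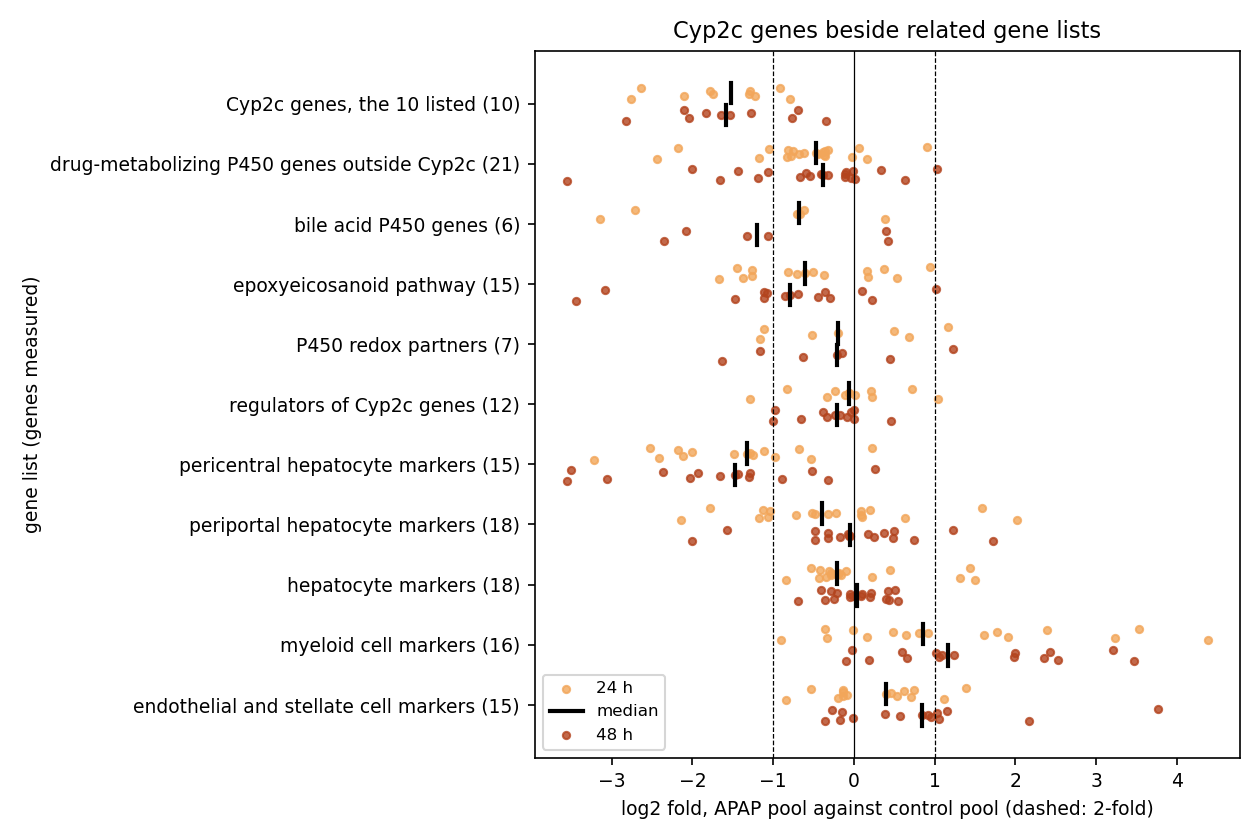
Log2 fold of every measured gene in the Cyp2c family and in 10 related lists, APAP pool against control pool, with 1 point per gene, upper rows for 24 h, lower rows for 48 h, black bars for medians and dashed lines at 2-fold. The Cyp2c genes and the pericentral markers have medians below -1 at both times, whereas regulators and general hepatocyte markers lie around 0.

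The 4 genes outside the family named here followed the summed Cyp2c profile most closely, by Euclidean distance of the 4 centred log2 values over 4398 genes whose mean reached 100 normalized reads. They were Abcd3 (distance 0.0772), a peroxisomal fatty acid transporter, Slc10a1 (0.116), the bile acid uptake transporter NTCP, Cyp4f14 (0.145) and Sc5d (0.145), an enzyme of cholesterol synthesis. Abcd3 had 1400, 1486, 577 and 580 reads in the 24 h control, 48 h control, 24 h APAP and 48 h APAP pools, 3.24 and 2.93 times lower at 24 h and 48 h. Likeness over 4 libraries describes these values only.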

How the data were processed

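Per the deposited table, the values were raw counts of reads per gene, 1 column for each of 4 libraries of pooled liver RNA. The authors made MACE libraries, removed duplicates by molecular identifiers, trimmed with cutadapt, mapped to mm10 and counted with HTSeq. Versions and annotation were not given in the sources used here. Normalized values, folds and p-values of the authors were in the table and not used. Libraries held 4859661, 5191990, 5698778 and 4938164 reads (24 h control, 48 h control, 24 h APAP, 48 h APAP).

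Counts were divided by median-of-ratios size factors (DESeq2 1.42.0, R 4.3.3). Folds compared the APAP pool with the control pool of the same time, with counts of 3 or fewer set to 3. Intervals were exact (Clopper-Pearson) intervals of the share of reads, and for ratios of folds exact conditional intervals (scipy 1.17.1). Intervals of levels were exact Poisson intervals. A gene was called at 2-fold. Alternatives were TMM (edgeR 4.0.16), library totals, the other or both control pools, thresholds of 5 and 1.5, a pseudocount of 1, and other floors and filters. The adjustment over 45 pairs and the fit of treatment over both times (edgeR quasi-likelihood, the same size factors, time as a term) were added after the first results. Calculations were tested on simulated counts.

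Transcript ends and coding sequences came from GENCODE release 21 (blastn 2.17.0 for at least 95% identity over 100 bases, Biopython 1.88 for global alignment), and promoters from RefSeq.

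The members and gene lists were chosen with earlier results of these data known. Named were all Cyp2c genes of the table, list genes changed 2-fold at both times in 1 direction, redox partners, regulators and epoxide hydrolases whose role bore on a result, and the 5 genes nearest to the summed profile. Of the genes this rule names, 2 are not reported here. The markers named as being at 0, Fabp2, Alb, Clec4f, Adgre1, Vsig4, Lrat, Cpox, Slc1a4, Lect2, Cyp2e1, Cyp3a13, Cyp4a10 and Cyp4a14 were chosen after their values were seen.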

Additional observations from a re-analysis of the deposited data

Results flagged for a closer look

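In 6 members the fold at 48 h differed from the fold at 24 h beyond counting error under all 3 scalings of the libraries, by the exact conditional interval over the 4 counts. The share of all measured genes that did so was not computed, so this count does not set the family apart. The fold at 48 h over that at 24 h was 1.45 for Cyp2c29 (1.33 to 1.60), 2.18 for Cyp2c38 (1.14 to 4.21), 1.44 for Cyp2c40 (1.10 to 1.90) and 1.48 for Cyp2c68 (1.25 to 1.77). It was 0.607 for Cyp2c37 (0.448 to 0.821) and 0.717 for Cyp2c70 (0.652 to 0.788). The separate values of Cyp2c40 and Cyp2c68 are uncertain, as their reads could be exchanged with those of their duplicates. The intervals compare 4 libraries and not mice, and the difference between time points was not tested over animals. For the sum of the 10 members the ratio was 1.08 (1.03 to 1.13), and without Cyp2c29 it turned to 0.903 (0.854 to 0.956).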

How the results depend on the processing

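The number of members at least 2-fold lower stayed between 6 and 9 at 24 h, 6 and 7 at 48 h and 5 and 7 at both times with TMM, library totals, the other or both control pools, a floor of 10 reads, the bound of the interval at 2-fold, or a mean of at least 100 normalized reads. With a threshold of 5-fold it was 2, 1 and 0. Library totals moved the median log2 fold of all measured genes to 0.19 at 24 h and 0.25 at 48 h, and the log2 fold of the summed members from -1.74 to -1.56 and from -1.63 to -1.37. Without Cyp2c29, the member with most reads, it was -1.30 and -1.44, and with all other Cyp2c genes added -1.58 at 48 h. All 100 folds of single members under alternatives kept their direction, although the log2 fold of Cyp2c68 at 48 h came to -0.08 with library totals. Of those, 3 changed sides of 2-fold, all of Cyp2c70 with the other or both control pools. With library totals the 48 h to 24 h ratios of Cyp2c54 (0.864) and Cyp2c67 (0.854) no longer differed from 1 beyond counting error. In the fit over both times, 9 members were lower, against 8 without the term for time, with TMM, with library totals or with DESeq2, and 6 to 9 when each pool was left out in turn. Over all genes that fit called 831 lower and 446 higher, against 519 and 261 without the term for time, 507 and 1137 with library totals, 310 and 122 with DESeq2, 237 and 79 without the 24 h control pool, and 157 and 59 without the 48 h control pool. No paired analysis was possible because each group held 1 library. Depth limits Cyp2c38 and Cyp2c69, which had at most 112 reads in a library.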
